A study of Populus tremula x Populus alba with 6 samples.

Results

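Transposable element (TE) loci detected by mobilome-seq in RNAi ddm1 line 23 of poplar are described here, in plants that went through drought and rewatering and in plants under control watering. Every TE locus in the list of either library was taken, which gave 44 loci after drought and rewatering and 109 under control watering. Matched by identical chromosome, start and end, they made 138 separate loci, of 436 listed over all 6 libraries of the series. Both libraries came from shoot apical meristems of the 717-1B4 clone of the hybrid Populus tremula x Populus alba, and both carry the RNAi construct against ddm1, so neither is a wild-type control. The other 4 libraries, from RNAi ddm1 line 15 and wild type (WT) under the same waterings, serve as background only. Each group has 1 library. The sources used here do not state the number of plants behind a library, the length of the drought or the level of ddm1, and this DNA assay does not measure the RNAi target.

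Retrotransposons copy themselves through RNA, and the linear DNA they make can close into circles outside the chromosomes. DNA transposons move as excised DNA, and Helitrons are thought to move by rolling-circle replication. Mobilome-seq amplifies circular DNA before sequencing, so that a TE locus with many reads is a candidate source of circles. DDM1 is a chromatin remodeller that helps to keep TEs methylated and silent in plants.

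Each list entry carries 4 measures. The depth value, headed cov DOC, and the split-read value, headed cov SR, are whole numbers and were not scaled to library size here. Whole numbers alone do not show whether they were scaled before deposit. Split reads are reads whose parts map apart, as at the junction of a circle, if the heading is read that way. The other measures are the fractions of the locus covered by depth and by split reads. Entries had depth values of 3 or more, split-read values of 3 or more, depth-covered fractions of 0.803 or more and lengths of 103 bp or more, so a locus missing from a list is called unlisted and not absent. With 1 library a group no difference below could be tested, and intervals are exact 95% intervals for counting error only. The sources used here do not state how reads mapping to several copies of a family were placed, and copies of one family can share reads.

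The first question was which loci the list of the drought and rewatering library kept, gained and lost against the control list. Few loci were kept. Of the 44 loci after drought and rewatering, 15 (34.1%, exact interval 20.5 to 49.9%) were also in the control list, where they made 13.8% of 109 (7.91 to 21.7%). The 29 gained loci were in the drought and rewatering list alone, and the 94 lost loci, 86.2% of the control list (78.3 to 92.1%), in the control list alone. The kept share of the drought and rewatering list was 38.0% in line 15 (30 of 79 loci) and 33.0% in WT (38 of 115). As a share of the control list it was 17.8% in line 15 (30 of 169) and 25.5% in WT (38 of 149). When the control list was limited to its 44 loci of highest depth value, all at 44 or more, 14 loci were in both, 30 were gained and 30 were lost. Gained and lost are equal there because the lists were made equally long, and only the control list was selected by depth.

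Most family names of the drought and rewatering list had a place in the control list too. The drought and rewatering list held 29 first family names, of which 27 (93.1%) were also first names in the control list, where they made 47.4% of 57 names. The names without a counterpart were Gypsy-27_PTr-I-int, with 4 loci, and Gypsy7-PTR_I-int, with 1. Both denote internal parts of Gypsy retrotransposons, the parts that code for the proteins. Gypsy-27_PTr-I-int did occur in the control list as a further name of loci called first by another name, and counting all names, Gypsy7-PTR_I-int and Gypsy17-PTR_I-int had no counterpart. Of the 94 lost loci, 44 carried a first name that the drought and rewatering list also held, and 50 did not.

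The gained loci divided by whether another library listed them. All 14 that no other library listed had depth values of 19 or less, with a median of 10. The other 15 were listed in line 15 or WT and had a median of 84 in line 23 after drought and rewatering. Of these 15, 13 were in a control list of another genotype and 9 in a drought and rewatering list. The lost loci were listed nowhere else in 54 of 94 cases, with a median control depth value of 12, against 43 for the remaining 40. All 15 loci in both lists of line 23 were in at least 1 list of another genotype.

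Gypsy elements, retrotransposons with long terminal repeats (LTRs), were the largest class in both lists. They made 27 of 44 loci after drought and rewatering (61.4%, 45.5 to 75.6%) and 53 of 109 in control (48.6%, 38.9 to 58.4%). Of the 15 loci in both lists, 10 were Gypsy, and 9 of those 10 were named as internal parts. Loci named as Gypsy LTRs numbered 9 after drought and rewatering and 28 in control, with 1 in both, whereas internal Gypsy loci numbered 18 against 25. Over Gypsy and Copia together, LTR names made 37.9% of 29 loci after drought and rewatering (20.7 to 57.7%) and 51.9% of 77 in control (40.3 to 63.5%), intervals that overlap.

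**Figure D1:**
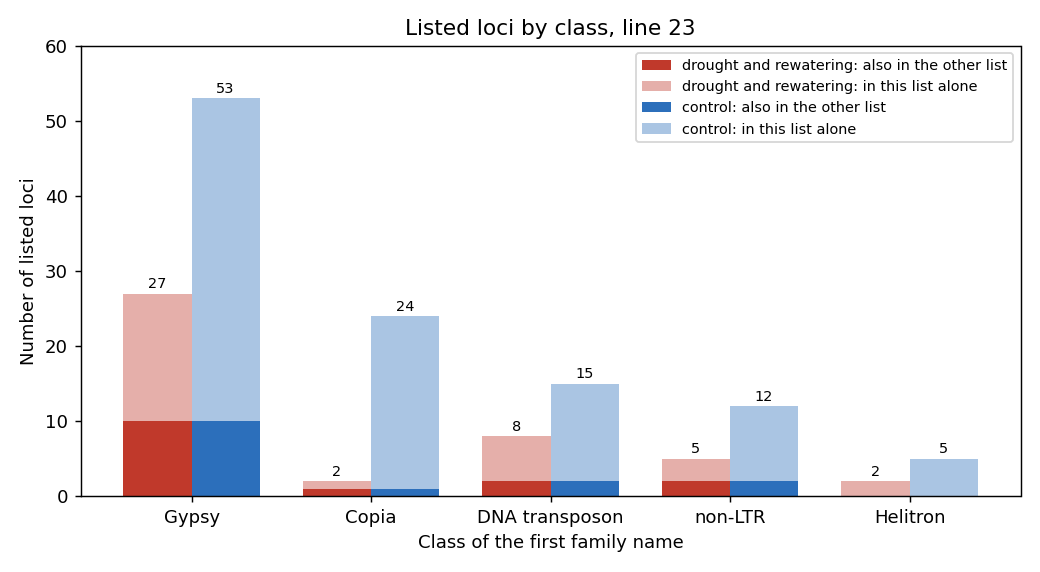
Number of listed loci (vertical axis) by class of the first family name (horizontal axis) in line 23 after drought and rewatering (red, left bars) and under control watering (blue, right bars), with loci in both lists in full colour and loci of 1 list in pale colour. Each class has fewer loci after drought and rewatering, and Copia has 2 against 24 in control.

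Copia elements, the other main LTR superfamily, numbered 2 after drought and rewatering (4.55%, 0.555 to 15.5%) and 24 in control (22.0%, 14.6 to 31.0%). These intervals overlap slightly. In line 15 Copia made 15 of 79 loci after drought and rewatering and 33 of 169 in control. In WT it made 21 of 115 and 20 of 149. The 23 lost Copia loci of line 23 had low to moderate control depth values, from 6 to 311 with a median of 22, and 12 of them were at 20 or more. All 12 internal Copia loci of the control list were lost, beside 86.2% of all control loci, so this count is near the share over the whole list. The name Copia-93_PTr-LTR alone accounted for 6 of the lost loci, at lengths between 249 and 254 bp and depth values between 8 and 311 in control. The highest of them lay on chromosome 14 (15385933 to 15386186), and line 15 control also listed it at 222. Limited to the 44 control loci of highest depth value, Copia made 11.4% of the control list (5 loci).

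The Copia loci listed after drought and rewatering differed from each other. Copia6-PTR_LTR on chromosome 3 (2840901 to 2841028) had a depth value of 4 after drought and rewatering and 31 in control, 7.75-fold lower, with split-read values of 4 and 6. Copia9-PTR_LTR on chromosome 18 (7702141 to 7702329) was gained, with a depth value of 84 and a split-read value of 58. It lacked an entry in every control list, and the drought and rewatering lists of line 15 and WT held it at 53 and 35.

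The summed depth value was 22388 after drought and rewatering and 44510 in control, and 1 locus made most of it on each side. Without the locus of highest depth value in each list, the sums were 8071 over 43 loci and 8122 over 108 loci. The median depth value of a listed locus was 27.5 after drought and rewatering and 28 in control, and 12 of 44 loci (27.3%, 15.0 to 42.8%) against 21 of 109 (19.3%, 12.3 to 27.9%) reached 100. The medians, taken over largely different loci, were thus close between the lists. The upper quartile was higher after drought and rewatering, at 121.75 against 73 in control.

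**Figure D2:**
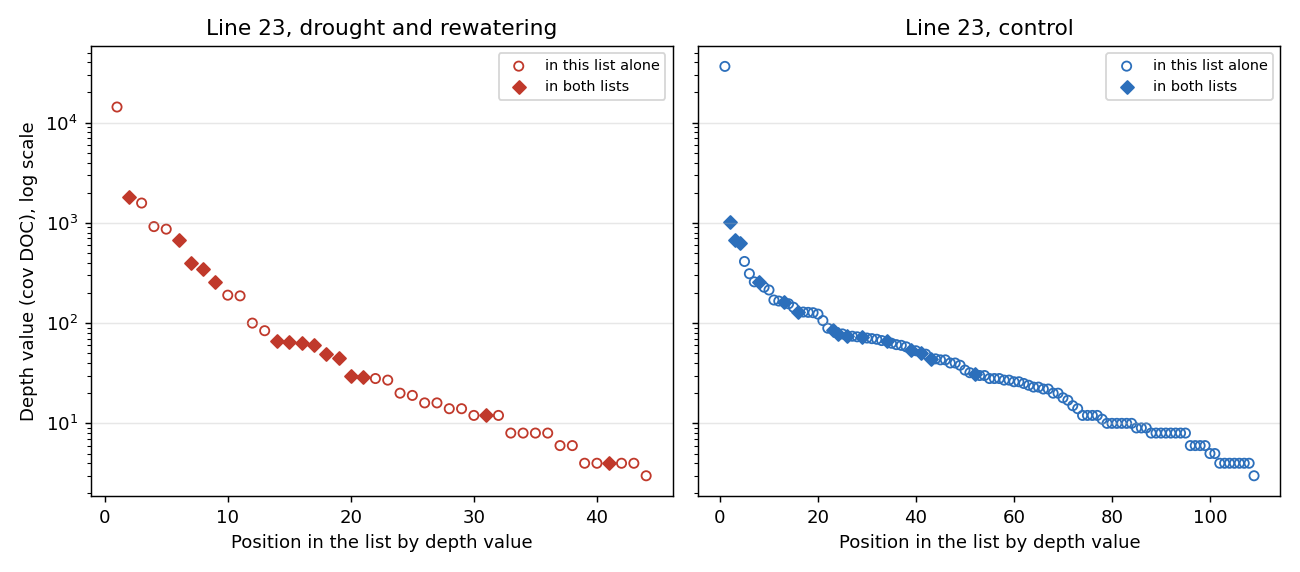
Depth value (vertical axis, log scale) of each listed locus against its position in the list (horizontal axis) in line 23 after drought and rewatering (left) and under control watering (right); filled diamonds are loci in both lists and open circles are loci of that list alone. The leading locus of each list, at 14317 and 36388, is in that list alone and stands far above the second, at 1809 and 1019.

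On chromosome 13 an 8194 bp locus named Gypsy-27_PTr-I-int (8689906 to 8698099) led the drought and rewatering list, with a depth value of 14317, or 63.9% of the sum. Its split-read value was only 6, and split reads covered a fraction of 0.0123 of it. Line 15 listed it after drought and rewatering too, at 24823, and not in control. WT listed it under both waterings, at 22796 after drought and rewatering and 20299 in control. The 3 other gained loci with this first name had depth values of 187, 4 and 3 on chromosomes 16, 18 and 13.

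The leading control locus was a 221 bp fragment named Gypsy23-PTR_I-int on chromosome 1 (44984628 to 44984848), with a depth value of 36388 (81.8% of the sum) and a split-read value of 722. After drought and rewatering it was unlisted. The same held in line 15 and WT, whose drought and rewatering lists lacked it and whose control lists gave 51684 and 49200. Another Gypsy23-PTR_I-int fragment 8826 bp away (44974374 to 44975801) was gained at a depth value of 27. Line 15 control and WT control listed that second fragment as well, at 79 and 71. A Gypsy23-PTR_I-int locus on chromosome 7 (3508329 to 3512360), the longest lost locus at 4032 bp, had a depth value of 106 in control.

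Divided by locus length, the order of the leading loci changed. After drought and rewatering the depth value per bp was 7.07, 3.53 and 2.62 at 3 DNA-3-3_PTr loci, 2.10 at an Ogre-PT2_I-int locus and 1.75 at the long Gypsy-27_PTr-I-int locus, which had rank 5. In control it was 165 at the Gypsy23-PTR_I-int fragment, 2.53 at ENSPM1_PT and 1.73 at DNA-3-2_PTr. Whether the depth value is already an average over the locus is not stated in the sources used here, in which case this division would not apply.

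The 15 loci in both lists allowed depth to be compared at the same place. Depth was higher after drought and rewatering at 3 and lower at 12, with a median log2 ratio of -0.55 and a range from -5.71 to 2.99. It was at least 2-fold higher at 2 loci (13.3%) and at least 2-fold lower at 5 (33.3%). The 2 higher loci lie 9 bp apart on chromosome 1, so they may not be independent of each other. In line 15 the higher and lower counts were 1 (3.33%) and 7 (23.3%) of 30 loci, and in WT 6 (15.8%) and 4 (10.5%) of 38. The direction of the median depends on scale. Divided by the sum of its list it was 0.44, with 10 loci higher, and the counts at 2-fold or more turned to 3 higher and 2 lower, whereas divided by the sum without the leading locus it was -0.54, and on ranks divided by list length -0.19.

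**Figure D3:**
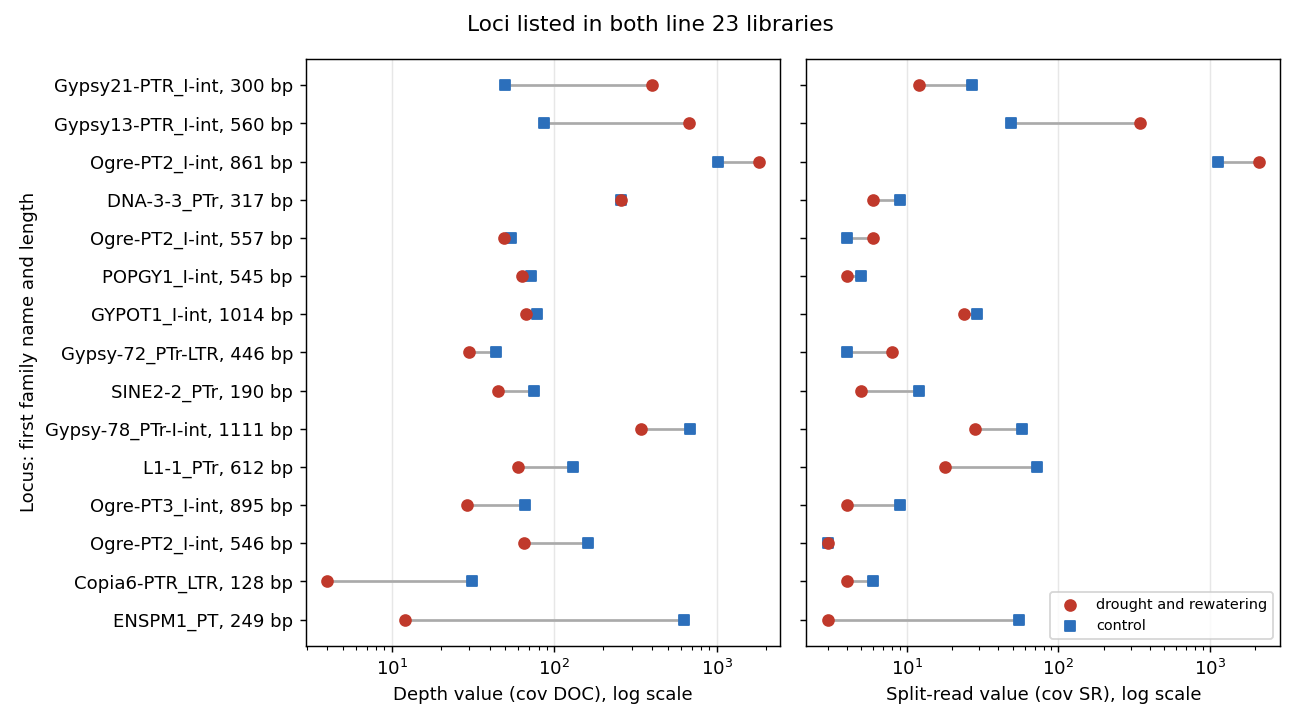
Depth values (left panel) and split-read values (right panel), both on log axes, of the 15 loci listed in both line 23 libraries, with red circles for drought and rewatering and blue squares for control, ordered from the highest depth ratio at the top. Gypsy21 and Gypsy13 stand out as higher in depth after drought and rewatering, and ENSPM1 and Copia6 as lower.

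Adjacent Gypsy fragments on chromosome 1 showed the highest ratios. Gypsy13-PTR_I-int (46570471 to 46571030) had a depth value of 679 after drought and rewatering and 86 in control, 7.90-fold higher. Gypsy21-PTR_I-int (46571040 to 46571339), separated from it by 9 bp, had 397 and 50, 7.94-fold higher. Both stayed higher on every scaling tried, by 0.15 and 0.45 on the log2 rank scale, where they differed least.

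Split reads went opposite ways at these neighbours. Gypsy13-PTR_I-int had a split-read value of 347 after drought and rewatering and 49 in control, whereas Gypsy21-PTR_I-int had 12 and 27. Another fragment, Gypsy21-PTR_I-int at 46573033 to 46573428, was gained with a depth value of 19 and a split-read value of 32, and no other library listed it. The 3 fragments span 2958 bp.

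Ogre elements are very large plant Gypsy retrotransposons, and 4 of their internal fragments were in both lists. The deepest locus common to the lists was Ogre-PT2_I-int on chromosome 1 (41624029 to 41624889), with a depth value of 1809 after drought and rewatering and 1019 in control, a log2 ratio of 0.83. It held the second rank in both lists, so on ranks the ratio was -0.02. Its split-read value was 2110 and 1133, above the depth value in both libraries, while the fraction covered by depth was 0.805 and 1. The other Ogre fragments were lower in depth after drought and rewatering. Ogre-PT2_I-int at 17789768 to 17790313 on chromosome 1 had 65 and 161, and Ogre-PT3_I-int at 2956061 to 2956955 on chromosome 19 had 29 and 66. At the third, Ogre-PT2_I-int on chromosome 11 (12996131 to 12996687), the values of 49 and 54 were close and turned to a log2 ratio of 0.85 on division by the list's sum.

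Some of these kept Ogre fragments lost their neighbours. On chromosome 19, fragments named first Gypsy-74_PTr-I-int (2955399 to 2955563) and Ogre-PT3_I-int (2955668 to 2956023) lie just ahead of the kept Ogre-PT3_I-int locus and were in the control list alone, at depth values of 14 and 53. On chromosome 11, Ogre-PT2_I-int at 12995828 to 12996121, 9 bp from the kept locus, was in the control list alone at 27. In all, Ogre names made 6 loci after drought and rewatering and 12 in control.

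The 4 remaining Gypsy loci in both lists were lower after drought and rewatering on the values as deposited and higher, or level, on division by the list's sum. Gypsy-78_PTr-I-int on chromosome 1 (47450642 to 47451752) had a depth value of 343 after drought and rewatering and 680 in control, with split-read values of 28 and 58. GYPOT1_I-int on chromosome 1 (36180667 to 36181680) had 67 and 78, and POPGY1_I-int on chromosome 19 (6885698 to 6886242) had 63 and 72. The locus 38198036 to 38198481 on chromosome 1, whose first name is Gypsy-72_PTr-LTR and which also carries a Helitron name, had 30 and 44, while its split-read value was 8 and 4. The log2 ratios after division by the sum were 0.0041 for Gypsy-78_PTr-I-int, 0.77 for GYPOT1_I-int, 0.80 for POPGY1_I-int and 0.44 for Gypsy-72_PTr-LTR.

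DNA transposons held the widest contrast among loci in both lists. ENSPM1_PT, a CACTA element on chromosome 14 (4297763 to 4298011), had a depth value of 12 after drought and rewatering and 630 in control, 52.5-fold lower. Its split-read value was 3 against 55, and its depth-covered fraction 0.835 against 1. It had rank 30 of 44 after drought and rewatering and rank 4 of 109 in control, and was lower on all scalings, with log2 ratios between -5.71 and -1.61. Line 15 listed this locus at 102 after drought and rewatering and 114 in control, and WT at 186 and 956. In line 23, DNA-3-3_PTr on chromosome 1 (24681274 to 24681590) was level, at 256 after drought and rewatering and 257 in control.

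DNA-3 loci were listed in like numbers, 5 after drought and rewatering and 6 in control, with 1 locus common to both. Over all loci, 34.1% of the drought and rewatering list and 13.8% of the control list were in both. The DNA-3 count is near the share over the whole control list. The gained DNA-3-3_PTr loci lay on chromosome 3 (12264531 to 12264753, depth value 1577), chromosome 1 (30005278 to 30005537, 918) and chromosome 16 (4150312 to 4150641, 866). Elsewhere their depth values varied. In line 15 the chromosome 3 locus had 6033 after drought and rewatering and 38 in control. The chromosome 1 locus had 46 after drought and rewatering and 84 in control in line 15 and 274 in WT control, and the chromosome 16 locus was listed only in WT after drought and rewatering, at 94. The lost DNA-3 loci were shallower in line 23 control than these 3 were after drought and rewatering. The deepest was DNA-3-2_PTr on chromosome 3 (16293701 to 16293938), at 412, followed by DNA-3-3_PTr on chromosome 8 (4688911 to 4689198), at 170, and on chromosome 12 (2097798 to 2098097), at 144, and no other library listed any of these 3. A small gained locus, DNA-3-2B_PTr on chromosome 4 (3534056 to 3534164), had a depth value of 20 in line 23 and was listed elsewhere only in WT control, at 828.

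LINE and SINE elements are retrotransposons without LTRs. L1-1_PTr on chromosome 8 (15378192 to 15378803), a LINE that also carries a Gypsy name, had a depth value of 60 after drought and rewatering and 130 in control, and a split-read value of 18 against 72. SINE2-2_PTr on chromosome 6 (2112611 to 2112800) had 45 and 75, and turned to a log2 ratio of 0.25 on division by the list's sum. The 3 gained loci of this class were SINEs at depth values of 8 to 16, and the 10 lost ones had control values of 4 to 127. All 4 L1-2_PTr loci of the control list were lost, at depth values of 4, 9, 43 and 44, which is again near the 86.2% over all control loci.

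No locus with a Helitron as first name was in both lists, although the Gypsy-72_PTr-LTR locus in both carries one as a further name. With 2 such loci after drought and rewatering and 5 in control, and 86.2% of all control loci lost, this count is near the share over the whole list. The gained ones were Helitron-N2_PTr on chromosome 1 (13958480 to 13958926), at a depth value of 8, and Helitron-N1_PTr on chromosome 4 (4328049 to 4328178), at 4. The 5 lost Helitrons had control depth values from 4 to 129, and 4 of them were listed nowhere else.

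The rest of the 10 deepest gained and 10 deepest lost loci were Gypsy loci. Ogre-PT3_LTR on chromosome 19 (11283528 to 11284050) was gained at a depth value of 190 with a split-read value of 486. Gypsy13-PTR_I-int on chromosome 19 (5462326 to 5463127) was gained at 100, and Gypsy-71_PTr-LTR on chromosome 1 (34470092 to 34470287) at 28. The lost side held POPGY2_LTR on chromosome 3 (2902731 to 2904312), at 258 in control, Gypsy13-PTR_I-int on chromosome 4 (5437039 to 5437693), at 228, and Ogre-PT3_LTR on chromosome 12 (2461875 to 2463816), at 214. Ogre-PT1_LTR on chromosome 19 (2979944 to 2980519) was lost as well, at 166 in control. POPGY2_LTR was the one of these lost loci that all 4 other libraries listed, with depth values of 292 and 208 after drought and rewatering in line 15 and WT, and 649 and 280 in their controls.

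The family names with at least 4 control loci are set beside the 13.8% of all control loci that were kept. For names with so few loci, 0 or 1 kept is near that share. Gypsy13-PTR_I-int had 3 loci after drought and rewatering and 5 in control, with 1 in both. Ogre-PT2_I-int had 3 and 5, all 3 of them in both lists. DNA-3-3_PTr had 4 and 4 with 1 in both, Gypsy-71_PTr-LTR 3 and 4 with 0 in both, and Gypsy-72_PTr-LTR 1 and 4 with 1 in both. Copia-93_PTr-LTR and L1-2_PTr had none after drought and rewatering.

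The split-read signal ran the other way from the number of loci. It summed to 9214 over 44 loci after drought and rewatering and 3345 over 109 loci in control. The median per locus was 6 in both lists, so the difference lay in a few loci. Split-read values of 100 or more were found at 6 loci after drought and rewatering (13.6%, 5.17 to 27.4%) and at 3 in control (2.75%, 0.571 to 7.83%).

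The DNA-3-3_PTr locus on chromosome 3 held 4681 of that sum, 50.8%, and split reads covered its whole length. Ogre-PT2_I-int at 41624029 on chromosome 1, a locus in both lists, followed with 2110. The gained DNA-3-3_PTr loci on chromosome 16 and chromosome 1 came next with 679 and 568. DNA-3 loci together held 64.5% of the split-read sum after drought and rewatering and 3.11% in control, and 27.8% and 1.73% when each list's highest DNA-3 locus was left out. Line 15 listed the chromosome 3 locus with split-read values of only 5 after drought and rewatering and 17 in control, although its depth value after drought and rewatering there was 6033. In control the leading split-read loci were Ogre-PT2_I-int at 41624029 on chromosome 1 (1133), the Gypsy23-PTR_I-int fragment (722) and Gypsy13-PTR_LTR on chromosome 1 (49644326 to 49645064), at 211 with a depth value of 156.

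**Figure D4:**
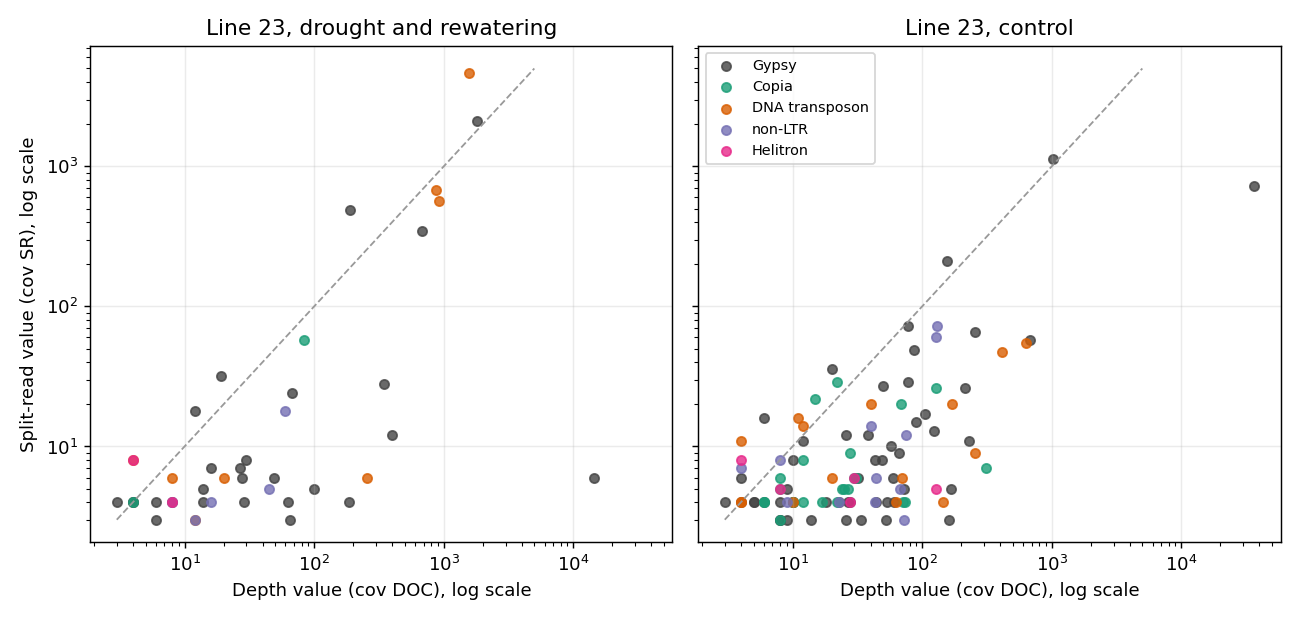
Split-read value (vertical axis, log scale) against depth value (horizontal axis, log scale) for each listed locus of line 23 after drought and rewatering (left) and under control watering (right), coloured by class; the dashed line marks equal values. After drought and rewatering 3 DNA transposon loci have split-read values above 100, and in control none does.

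The split-read value equalled or exceeded the depth value at 11 of 44 loci after drought and rewatering (25.0%, 13.2 to 40.3%) and at 17 of 109 in control (15.6%, 9.36 to 23.8%). At most of them both values were small. Those with a split-read value of 10 or more after drought and rewatering were the chromosome 3 DNA-3-3_PTr locus, Ogre-PT2_I-int at 41624029, Ogre-PT3_LTR on chromosome 19, Gypsy21-PTR_I-int at 46573033, and Gypsy13-PTR_I-int on chromosome 13 (5583629 to 5584073, 18 against a depth value of 12). The small ones included Helitron-N1_PTr on chromosome 4 and Harbinger1_PTr, a DNA transposon, on chromosome 3 (1199214 to 1199348), each with a split-read value of 8 and a depth value of 4. In control they included Copia-93_PTr-LTR on chromosome 11 (14037422 to 14037672, 29 against 22), Copia-93_PTr-I-int on chromosome 12 (14315573 to 14316014, 22 against 15), Gypsy13-PTR_I-int on chromosome 13 (127885 to 128433, 36 against 20) and EnSpm2_PTr, a CACTA element, on chromosome 5 (15631580 to 15631691, 16 against 11).

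At the 15 loci in both lists the median log2 ratio of split-read values was -0.58, with a range from -4.20 to 2.82. Of these, 2 loci (13.3%) were at least 2-fold higher and 6 (40%) at least 2-fold lower. In line 15 these counts were 3 (10%) and 11 (36.7%) of 30 loci, and in WT 3 (7.89%) and 7 (18.4%) of 38. Depth and split reads were both higher at 2 loci and both lower at 9. Divided by the sum of its list the median was -2.05. The sums without the highest split-read locus of each list were 4533 after drought and rewatering and 2212 in control.

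Loci in both lists were longer than the rest. Their median length was 546 bp, against 223 bp for gained and 253 bp for lost loci. Between the whole lists the medians were 308.5 bp after drought and rewatering and 280 bp in control. The listed length summed to 27097 bp after drought and rewatering and 48587 bp in control, and the Gypsy-27_PTr-I-int locus made 8194 bp of the drought and rewatering sum.

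Depth covered 88.7% of the listed length after drought and rewatering and 90.3% in control, with median fractions per locus of 0.935 and 0.936. Split reads covered 25.0% and 36.9%, or 35.3% after drought and rewatering without the long Gypsy-27_PTr-I-int locus and 38.7% in control without its longest. The median fraction covered by split reads was 0.366 after drought and rewatering and 0.478 in control. At the 15 loci in both lists the depth-covered fraction was lower after drought and rewatering at 6, higher at 3 and equal at 6, and below 0.85 at 5 after drought and rewatering against 1 in control. The fraction covered by split reads was lower after drought and rewatering at 8 of these 15 loci and higher at 7.

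**Figure D5:**
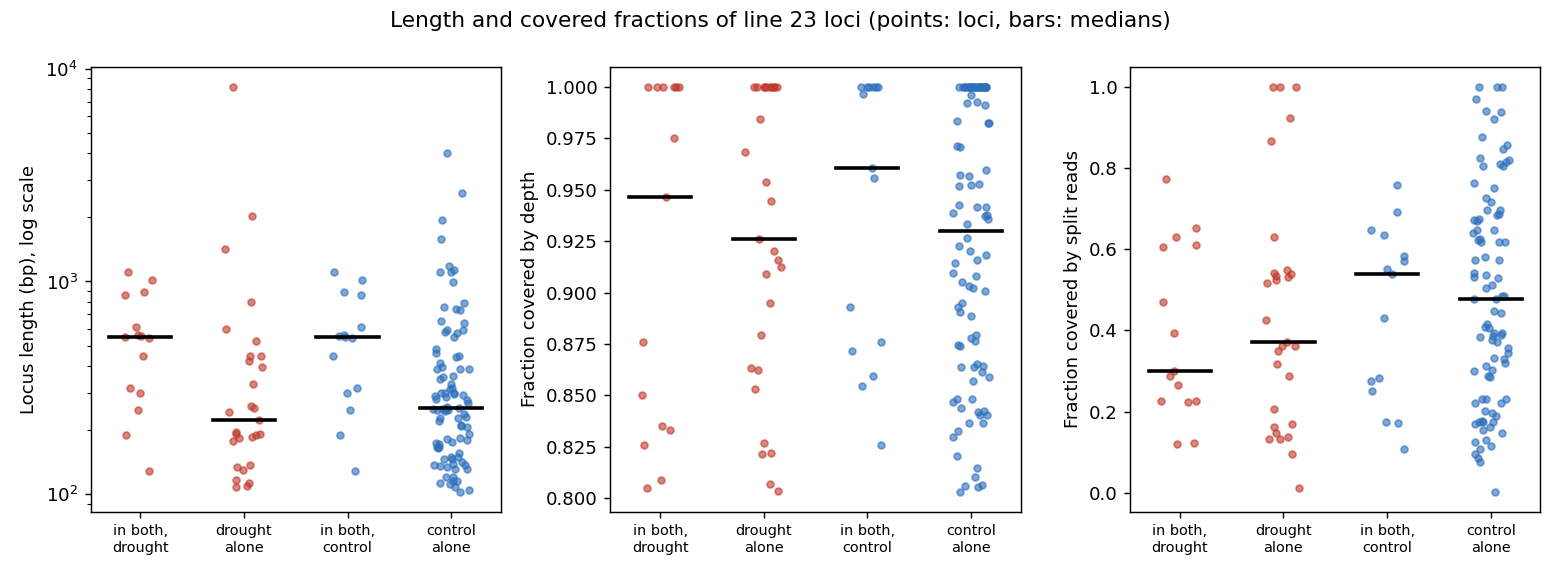
Locus length in bp (left, log scale), fraction covered by depth (middle, axis starting near 0.8) and fraction covered by split reads (right) for line 23 loci, in red for drought and rewatering and blue for control; each point is a locus and each bar a median. Loci in both lists have a median length of 546 bp, above the 223 bp and 253 bp of loci in 1 list alone.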

How the data were processed

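Per the labels' protocols, extrachromosomal DNA was amplified, 1 Nextera XT library was made per group, and a MiSeq gave 2 reads of 250 bp per fragment. Bowtie2 is named, with no version, in the submitters' processing notes; the sources used here state no build, counting tool or filter. The deposited depth and split-read signal values are whole numbers, used as deposited in the main comparisons. The deposited covered fraction values, headed percent, run from 0 to 1. Lists were tied to samples by sheet name and sample title. Since end minus start gave the length of all 665 entries, starts were raised by 1. Library totals were not used.

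Loci were matched by identical coordinates and classed by first family name. Python 3.11.15, pandas 2.3.3 and scipy 1.17.1 gave counts, exact Clopper-Pearson intervals and log2 ratios, drought and rewatering over control. No count model and no test was used. Matching was tested on simulated lists.

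Named were all loci in both lists, the 10 deepest gained and 10 deepest lost, Copia and Helitron loci of the drought and rewatering list, the longest per set, families with at least 4 control loci, and, in part by name, loci whose split-read value reached the depth value. Other named loci were chosen after their values were seen. Members, lists and rule were chosen with earlier results of these data known. Alternatives changed the matching, the minimum depth, split-read value, fraction and length, the list length, the scale and the class rule.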

Additional observations from a re-analysis of the deposited data

Results flagged for a closer look

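Of the loci in both line 23 lists, 12 were also listed under both waterings in another genotype, in 19 pairs of locus and genotype. The depth value differed in direction from line 23 in 10 of the 19 pairs, at 8 loci. These differences were not tested, and each rests on 1 library a group. Ratios are log2, drought and rewatering over control, on the values as deposited. Gypsy21-PTR_I-int on chromosome 1 (start 46571040) had a ratio of 2.99 in line 23 but -3.35 in line 15, with depth values there of 25 after drought and rewatering and 255 in control. Ogre-PT2_I-int on chromosome 1 (start 41624029) had 0.83 in line 23, against -2.36 in line 15 and -0.30 in WT. L1-1_PTr on chromosome 8 had -1.12 in line 23 and 0.27 in line 15, while WT, at -0.60, had the direction of line 23. SINE2-2_PTr on chromosome 6 had -0.74 in line 23 and 0.82 in WT, while line 15, at -1.56, had the direction of line 23. GYPOT1_I-int had -0.22 in line 23, against 0.45 in line 15 and 1.59 in WT. POPGY1_I-int had -0.19 in line 23 and 0.81 in line 15. Ogre-PT2_I-int on chromosome 11 had -0.14 in line 23 and 0.94 in WT. DNA-3-3_PTr on chromosome 1 (start 24681274) had -0.0056 in line 23, from depth values of 256 after drought and rewatering and 257 in control, and 0.33 in line 15. The last 3 line 23 ratios, and those of GYPOT1_I-int and SINE2-2_PTr, turned positive on division by the sum of the list.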

How the results depend on the processing

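Matching by an overlap of at least 1 bp gave the same sets, and merging loci within 1000 bp kept every count of listed, common, gained and lost loci within 1.5 times. No filter made the drought and rewatering list the longer one. With a depth value of at least 20 there were 24 loci after drought and rewatering and 69 in control, with 11 gained and 56 lost. With a depth-covered fraction of at least 0.95 there were 20 and 48, with 5 in both, 15 gained and 43 lost. With a length of at least 200 bp there were 28 after drought and rewatering, with 15 gained and 62 lost. With a split-read value of at least 5 there were 27 and 66, with 8 in both, 19 gained and 58 lost. Limiting the control list to its 44 deepest loci gave 30 lost. These counts fall mainly because fewer entries enter. Filters act on each list before matching, so a locus in both full lists can turn into a gained or lost one. At a depth value of at least 20, ENSPM1_PT and Copia6-PTR_LTR counted as lost, although the drought and rewatering list holds them at 12 and 4. The median log2 depth ratio at loci in both lists turned to 0.44 on division by the list's sum, which adds 0.99 to every ratio, and the median split-read ratio was -2.05 on division by its sum. The alternative class shares reuse the same loci, so the exact interval, which covers counting error only, does not measure the effect of a filter. Of 35 such shares, 30 stayed within that interval. The others were Copia at 0% after drought and rewatering for loci of at least 200 bp, Copia at 11.4% of the limited control list, LINE and SINE at 3.57% after drought and rewatering and 5.33% in control for loci of at least 200 bp, and Helitrons at 0% after drought and rewatering for depth values of at least 20. No paired analysis was possible because each group has 1 library. Entries at the lowest values rest on 3 or 4 units of signal, and total reads are not used here, so a locus missing from the shorter list cannot be told apart from one below its detection.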

Other observations

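Counts of listed loci by chromosome are given without chromosome lengths, which were not used. Chromosome 1 held 15 of 44 loci after drought and rewatering (34.1%, exact interval 20.5 to 49.9%) and 19 of 109 in control (17.4%, 10.8 to 25.9%), intervals that overlap. It held 8 of the 15 loci in both lists, and some of its loci are adjacent fragments. In the other lists it held 23 of 115 loci in WT after drought and rewatering and 26 of 149 in WT control. For line 15 the counts were 11 of 79 after drought and rewatering and 36 of 169 in control. In line 23, chromosome 5 held 1 after drought and rewatering and 11 in control, with none in both, beside 86.2% of all control loci lost. Chromosome 8 held 1 and 9. Chromosomes 7 and 12 held 0 after drought and rewatering, against 3 and 6 in control, while chromosome 13 held 4 against 2 and chromosome 16 held 2 against 0. These shares were looked at after the values were seen and were not tested.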
